A study of Mus musculus with 4 samples.

Results

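CD8 cluster 3 is a set of T cells from the marrow of transplanted mice, taken as the cells that the authors' deposited per-cell table places in the CD8 object and in cluster 3. It held 298 cells of 2377 CD8 cells and of 3587 cells in all. Of these, 1 came from mice given cyclophosphamide after the transplant (PT-Cy), out of 512 PT-Cy CD8 cells (0.195%, exact binomial 95% interval 0.00494% to 1.08%). The other 297 came from mice given the transplant alone (alloBMT), out of 1865 alloBMT CD8 cells (15.9%, 14.3% to 17.7%). The data below are the open chromatin (ATAC) counts and the deposited scores of the 297 alloBMT cells, set against the other 1568 alloBMT CD8 cells.

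PT-Cy mice were B6 (C57Bl/6) recipients of marrow and T cells from C3H.SW donors that were then treated with 50 mg/kg cyclophosphamide on days 3 and 4, and alloBMT mice had the same transplant without the drug. All recipients were given 5000000 marrow cells, 500000 CD4 T cells and 500000 CD8 T cells. T cells were sorted from marrow on day 14, and RNA and ATAC were read from the same nuclei with the 10x Multiome platform. Each group was a pool of 4 mice read as 1 library per assay, so no spread between animals can be given and no value below has a replicate. The authors placed the cells in clusters from these same data, which means that a difference in a peak between cluster 3 and the rest is a description of the cluster and not a test of it. No p-value is given for that reason. Intervals on counts cover counting error only.

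The distinction between exhausted and stem-like CD8 T cells is the background to the deposited scores. After long contact with antigen, as happens when donor T cells meet the tissues of an allogeneic recipient, CD8 T cells can become exhausted: they keep inhibitory receptors such as PD-1 (Pdcd1) and TIM-3 (Havcr2) on the surface, and regulatory elements around genes such as Tox become open. Stem-like cells keep the factors TCF-1 (Tcf7) and LEF-1 (Lef1) and can renew the pool. An ATAC peak marks a stretch of DNA that the transposase could enter, at a promoter or at a distal element, and its count says nothing about which factor is bound there or how much RNA the gene makes. RNA counts of CD8 cells are not used here.

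Most peaks that set cluster 3 apart lay away from the start sites used here, and their sequence could not be read without a genome. The promoters that did differ are shown first. The 250 bases upstream of the start site follow for 4 genes whose start-site peak was at least 2-fold more open in cluster 3 than in the other alloBMT CD8 cells (Kif26b, Gjb2, Mall and Dgkg), for Klf3, whose whole locus was among the least open, and for Syk, whose start-site peak was at least 2-fold less open. The 6 genes were chosen for display after their values were seen. Capitals mark CpG dinucleotides. Sequences are from RefSeq (GRCm38.p6), 5′ to 3′ on the strand of the gene. The windows are chr1:178528875-178529124 (plus strand) for Kif26b, chr14:57104703-57104952 (minus) for Gjb2, chr2:127729898-127730147 (minus) for Mall, chr16:22657232-22657481 (minus) for Dgkg, chr5:64803271-64803520 (plus) for Klf3 and chr13:52583187-52583436 (plus) for Syk.
Kif26b: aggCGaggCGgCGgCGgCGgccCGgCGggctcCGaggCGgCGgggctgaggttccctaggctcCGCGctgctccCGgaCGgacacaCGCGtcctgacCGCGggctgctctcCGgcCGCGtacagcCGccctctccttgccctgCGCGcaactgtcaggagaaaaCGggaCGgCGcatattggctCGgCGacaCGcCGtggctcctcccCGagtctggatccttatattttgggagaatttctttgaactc
Gjb2: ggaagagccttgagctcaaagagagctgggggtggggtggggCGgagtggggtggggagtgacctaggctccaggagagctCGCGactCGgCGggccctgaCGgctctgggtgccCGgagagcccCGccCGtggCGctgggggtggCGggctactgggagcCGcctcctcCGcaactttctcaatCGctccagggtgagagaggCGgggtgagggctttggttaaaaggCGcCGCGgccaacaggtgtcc
Mall: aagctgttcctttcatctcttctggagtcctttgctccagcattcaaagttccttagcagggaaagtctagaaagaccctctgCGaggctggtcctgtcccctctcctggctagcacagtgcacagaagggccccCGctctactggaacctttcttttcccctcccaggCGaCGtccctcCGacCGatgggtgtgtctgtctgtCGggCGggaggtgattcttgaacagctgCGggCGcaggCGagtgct
Dgkg: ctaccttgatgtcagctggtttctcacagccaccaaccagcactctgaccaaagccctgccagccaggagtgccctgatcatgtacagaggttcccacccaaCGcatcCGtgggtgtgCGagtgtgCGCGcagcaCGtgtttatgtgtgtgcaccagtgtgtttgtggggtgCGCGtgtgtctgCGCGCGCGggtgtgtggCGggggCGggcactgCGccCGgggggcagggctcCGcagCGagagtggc
Klf3: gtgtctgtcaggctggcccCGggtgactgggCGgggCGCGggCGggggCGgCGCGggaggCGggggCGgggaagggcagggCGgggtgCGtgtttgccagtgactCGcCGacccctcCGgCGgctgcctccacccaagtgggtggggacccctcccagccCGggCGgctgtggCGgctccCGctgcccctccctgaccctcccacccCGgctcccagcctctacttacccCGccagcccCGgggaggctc
Syk: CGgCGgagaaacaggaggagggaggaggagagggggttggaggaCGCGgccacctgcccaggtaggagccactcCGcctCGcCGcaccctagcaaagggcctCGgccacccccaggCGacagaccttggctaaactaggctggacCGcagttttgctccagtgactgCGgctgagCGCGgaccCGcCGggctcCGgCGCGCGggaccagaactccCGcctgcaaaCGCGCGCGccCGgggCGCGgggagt

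Kif26b, which encodes a kinesin family protein, had 32 CpG in these 250 bases, and its start-site peak held 159 counts in cluster 3 and 305 in the other cells, a log2 ratio of CPM (counts scaled to a common total in peaks) of 1.24 (95% interval 0.95 to 1.52). Gjb2, the gap junction protein connexin 26, had 18 CpG and a log2 ratio of 1.26 (0.92 to 1.597, from 114 counts in cluster 3 and 215 in the other cells). Mall, a MAL-like membrane protein, had 11 CpG and a log2 ratio of 1.68 (1.15 to 2.21, from 54 and 76 counts). Dgkg, a diacylglycerol kinase, had 18 CpG and a log2 ratio of 1.13 (0.76 to 1.48, from 98 and 203 counts). The 2 less open promoters shown were as rich in CpG, but they do not stand for the less open set. The Klf3 start-site peak did not reach 2-fold. Syk had the most CpG (31 in 300 bases) of the 6 genes with a less open start-site peak, whose median was 7.5. Klf3, a Krüppel-like repressor, had 23 CpG and a log2 ratio of -0.79 (-1.12 to -0.47, from 91 and 712 counts). Syk, a tyrosine kinase best known in B cells, had 27 CpG and a log2 ratio of -1.01 (-1.86 to -0.26, from 16 and 146 counts).

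Promoters that were more open in cluster 3 were CpG-rich as a set. In the 300-base windows of the RefSeq table (250 bases before to 50 after the start site), the 36 windows of the 34 genes with a more open start-site peak had a median of 27 CpG, against 22 in the 10991 windows whose peak had at least 100 counts and 13 in all 21263 windows. Among windows whose peak had 100 to 300 counts, a range closer to that of the more open ones, the median was 16. The AP-1 motif TGANTCA, searched on both strands, was in 0 of the 36 windows and in 4.02% of the 10991. The KLF/SP motif GGGCGG, on both strands, was in 77.8% and 69.3% of them. The RUNX motif TGTGGT was in 19.4% and 11.8%, and the TCF/LEF motif CTTTGA in 8.33% and 10.7%. None of the 4 motifs contains another, and a match, or none, is a description of the window and no more. The less open start-site peaks belonged to 6 genes, with a median of 7.5 CpG (0 to 31).

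The cells of cluster 3 carried the CD8 lineage loci. The Cd8b1 locus, which encodes the beta chain of the CD8 co-receptor, stood at 56.6 CPM in cluster 3, 58.3 CPM in the other alloBMT CD8 cells and 12.5 CPM in alloBMT CD4 cells. A locus here is the sum of the peaks that overlap a gene or lie within 2 kb of it. The Cd8a locus stood at 27.6 CPM in cluster 3, 34.6 CPM in the other CD8 cells (log2 ratio -0.33, -0.68 to 0.013) and 7.03 CPM in CD4 cells, and the Cd4 locus at 42.6, 45.1 and 93.5 CPM. Accessibility of Cd4 in CD8 cells was therefore lower than in CD4 cells but not near 0. Zbtb7b, which encodes the CD4 lineage factor ThPOK, did not differ beyond counting error (72.5 CPM in cluster 3 and 64.1 CPM in the other CD8 cells, log2 ratio 0.18, -0.04 to 0.39).

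Cluster 3 was the second deepest of the 8 alloBMT CD8 clusters by its median. Its cells held 3005656 counts in peaks in all and a median of 9370 per cell, against 13600274 and 7510 in the other CD8 cells, where cluster medians ran from 2449 (cluster 1) to 15014 (cluster 2). The share of fragments at transcription start sites had a mean of 36.9% in cluster 3 and 39.2% in the other cells, 0.63 SD lower. The fraction of fragments in peaks was 64.0% and 66.0%, the TSS enrichment 5.35 and 5.56, and the mitochondrial share of the RNA 5.94% and 4.79%, which was 0.603 SD higher in cluster 3. These values and the depth move with every result below, and their part in the results was not tested. Of the cell barcodes, 2 occurred in both libraries, and 1 of these was an alloBMT cluster 3 cell.

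Deposited scores named for exhausted cells had their highest medians, among the 8 alloBMT CD8 clusters, in cluster 3. Tex1 had a mean of 0.0457 in cluster 3 and 0.0226 in the other alloBMT CD8 cells, a difference of 0.0231 or 0.826 SD over cells, and 251 of 297 cluster 3 cells (84.5%) lay above the median of the others. The median Tex1 was 0.0447 in cluster 3, 0.0325 in cluster 0, the next in order, and -0.0104 in cluster 6, the lowest. Tex_Acc1, whose name points to accessibility, had a mean of 0.0735 in cluster 3 and 0.0525 in the others (0.539 SD higher), with 212 of 297 cells (71.4%) above the median of the others. The scores named for stem-like cells were lower by less: Stem_Like1 had a mean of -0.0221 in cluster 3 and -0.000895 in the others (-0.241 SD), and Stem_Like_Acc1 a mean of 0.0138 and 0.0312 (-0.162 SD). Cluster 4 was lower than cluster 3 in Stem_Like1, with a median of -0.0420 against -0.0318. The sources used here do not name the gene sets behind these scores. The quartile ranges of clusters 3 and 0 overlapped for each of the 4 scores, whereas for Tex1 that of cluster 3 (0.0298 to 0.0605) lay above those of clusters 5, 6 and 7.

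**Figure D1:**
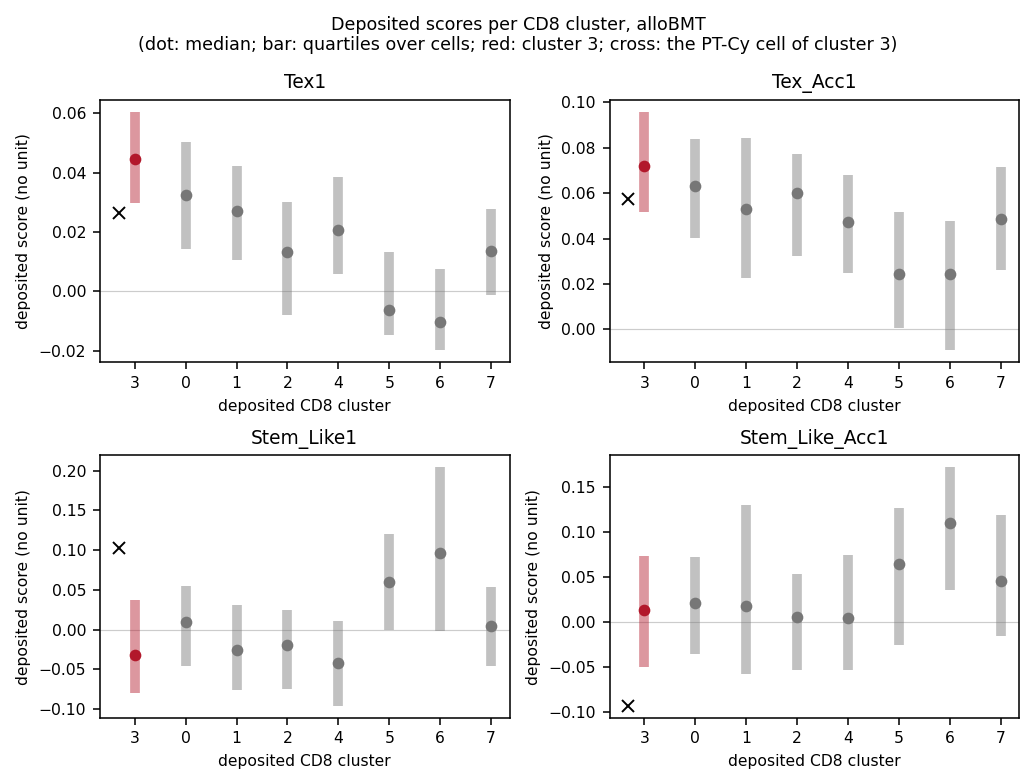
Deposited score (vertical axis, no unit) of alloBMT CD8 cells in each deposited cluster (horizontal axis), with the median as a dot, the quartiles over cells as a bar, cluster 3 in red and the PT-Cy cell of cluster 3 as a cross. Cluster 3 has the highest median of Tex1 (0.0447) and of Tex_Acc1 (0.0721), and clusters 5 and 6 have the highest medians of both scores named for stem-like cells.

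The PT-Cy cell placed in cluster 3 had 5193 ATAC counts and 6667 UMIs of RNA. Its Tex1 was 0.0264, close to the median of alloBMT cluster 1, and its Tex_Acc1 was 0.0573, within the quartiles of the alloBMT cluster 3 cells. Its Stem_Like1 of 0.103 lay above their upper quartile (0.0369), while its Stem_Like_Acc1 of -0.0936 lay below their lower quartile (-0.0503).

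Peaks were found in both directions of difference between cluster 3 and the other alloBMT CD8 cells. With a minimum of 100 counts, 32141 peaks could be measured. A 2-fold threshold left 445 (1.38%) as more open in cluster 3 and 237 (0.737%) as less open. Each of their intervals excluded 0, which the 2-fold threshold and the minimum of counts fix in advance. The whole interval lay past 2-fold for 60 of the more open and 3 of the less open peaks. Just inside the threshold, within 0.1 of a log2 ratio of 1, lay 131 more open peaks, with 214 just outside it, and likewise 76 less open peaks inside and 129 outside. The share of more open peaks among those called, 65.2%, depended on the scaling. It was 39.3% (278 more open and 429 less) with edgeR TMM factors, 38.0% (268 and 437) with DESeq2 size factors, 71.5% (502 and 200) with TMM taken over the 32141 peaks alone, and 76.5% (582 and 179) after scaling to the counts in start-site peaks. With the cells thinned to a common depth, which left 12078 peaks with enough counts, the share was 20.9% (27 more open and 102 less), so which direction held the majority depended on these choices. TMM over all 148283 peaks moved every log2 ratio by -0.14 and TMM over the 32141 peaks by 0.04.

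The more open peaks mostly lay away from the start sites used here. These were the start sites of 17492 of 21887 protein-coding genes, so a promoter of another gene counts as distal. A peak at Tox, for example, stood 2459 kb from the nearest start site used. Of the 445, 7.64% lay on a start site, against 27.4% of all 32141 peaks, and of the 237 less open peaks 2.53% did. Start-site peaks tend to hold many counts, and among peaks with 100 to 200 counts, where 138 and 132 were the medians of the more and less open ones, 6.08% lay on a start site. Peaks over 50 kb from any of these start sites made up 39.1% of the more open and 35.4% of the less open peaks. The share was 24.2% of all peaks and 29.1% of those with 100 to 200 counts. The median distance to the nearest of these start sites was 31.4 kb for more open and 28.0 kb for less open peaks, against 12.2 kb for all. It was 21.3 kb for peaks with 100 to 200 counts.

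**Figure D2:**
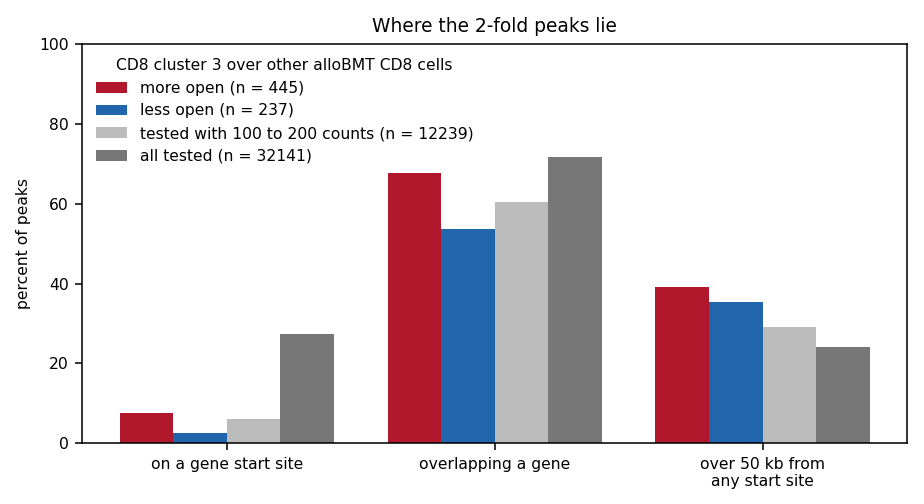
Percent of peaks (vertical axis) that lie on a gene start site, overlap a gene, or lie over 50 kb from any start site used, for the more open peaks, the less open peaks, all peaks with 100 to 200 counts and all peaks with at least 100 counts. The start sites used are those of 17492 of 21887 genes. Start-site peaks are 7.64% of the more open and 2.53% of the less open peaks but 27.4% of all, a share that is 6.08% among peaks of 100 to 200 counts.

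The peaks furthest from the rest held about as many counts in cluster 3 as in all other CD8 cells together, although cluster 3 held 3005656 counts in all and the other cells 13600274. The peak with the highest lower bound lay 75.4 kb from Dap (death-associated protein), at chr15:31147933-31149016. It held 65 counts in cluster 3 (21.6 CPM) and 44 in the other cells (3.24 CPM), a log2 ratio of 2.74 (2.17 to 3.33). Across the other clusters it ran from 1 count in cluster 4 to 18 counts in cluster 0. In CPM it ran from 0.426 in cluster 4 to 5.62 in cluster 1, which held 1068420 counts in all, so no cluster came near. A peak inside Pde4d, which encodes a phosphodiesterase that breaks down cyclic AMP, at chr13:109760964-109761830, held 65 counts in cluster 3 and 56 in the others (log2 ratio 2.39, 1.85 to 2.93), with 0 counts in clusters 5 and 6. Peaks in Fars2 (2.55), at the start site of Lrrc9 (2.54), in Git2 (2.51), 9.07 kb from Ptbp3 (2.29) and in Mrc2 (1.98) were also among the 8 with the highest lower bound. Mrc2 encodes a collagen-binding endocytic receptor. A nearest gene is a label for position and says nothing of which gene an element acts on.

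The less open peaks came from elements that several other clusters held. A peak in Wwox, at chr8:114984410-114985183, held 4 counts in cluster 3 (1.33 CPM) and 110 in the other cells (8.09 CPM), a log2 ratio of -2.60 (-4.50 to -1.21), and stood highest in cluster 4 (17.5 CPM). A peak 32.9 kb from Tagap, a T cell activation gene, held 18 counts in cluster 3 and 277 in the others (-1.77, -2.54 to -1.08). A peak 193 kb from Tgfbr2, which encodes a receptor subunit for TGF-beta, held 20 and 267 counts (-1.56, -2.30 to -0.90). That element was 33.0 CPM in cluster 6 and 7.49 CPM in cluster 1 (8 counts), close to the 6.65 CPM in cluster 3. Peaks 25.03 kb from Timm8a2 (-1.98), 142 kb from Jun (-2.13), 5.89 kb from Arl4c (-1.93), 11.7 kb from Rasa3 (-2.16) and in Galnt9 (-1.61) completed the 8 with the lowest upper bound.

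**Figure D3:**
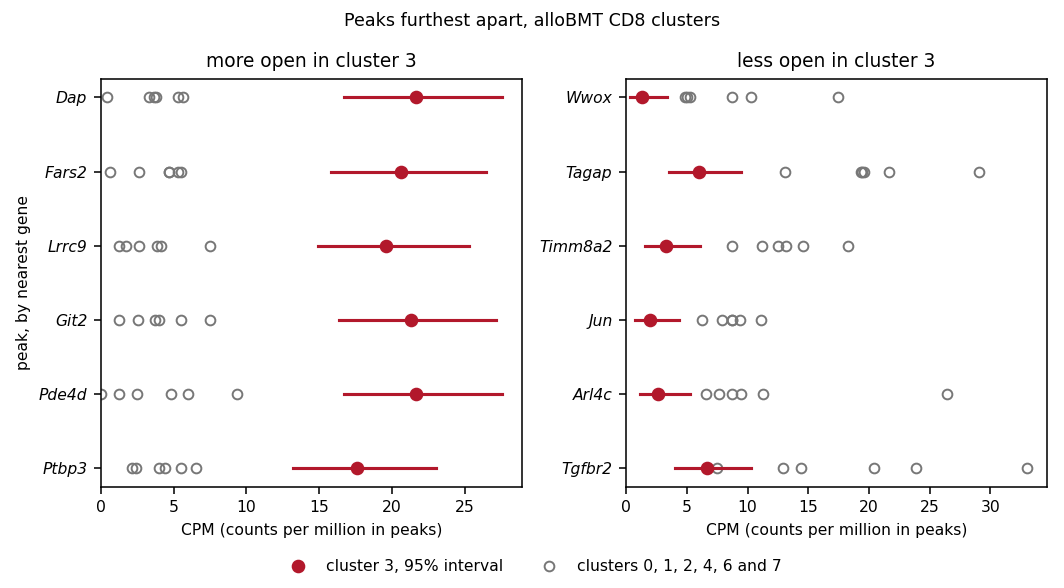
CPM (horizontal axis) of the first 6 peaks by highest lower bound (left) and the first 6 by lowest upper bound (right), named by nearest gene, in alloBMT CD8 cluster 3 (red, with 95% Poisson interval) and in each other cluster of at least 50 cells (open circles). On the left every open circle lies below the interval of cluster 3, and on the right cluster 3 is the lowest point for each peak.

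Shares of cells with a count were also taken at a common depth. With every cell thinned to 2429 counts, the Pde4d peak had a count in 15 of 297 cluster 3 cells (5.05%, 2.85% to 8.19%) and in 0.796% of 1382 other cells. The Dap peak had a count in 5.05% of cluster 3 cells and 0.579% of the others. The Wwox peak had a count in 0 of 297 cluster 3 cells, which allows a share of up to 1.23%, and in 1.95% of the others. No cluster 3 cell and 186 other cells were too shallow to be thinned. The thinned counts are a part of those that chose the peaks, so these shares describe the peaks at that depth and do not support their choice. At least 2-fold in the thinned counts were 341 of the 445 more open peaks and 143 of the 237 less open ones.

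The other clusters differed in how near they came. Of the 445 more open peaks, 433 had a higher CPM in cluster 3 than in each of the 6 other alloBMT CD8 clusters of at least 50 cells, and of the 237 less open peaks 195 had a lower one than in each; the choice of the peaks against these same cells largely fixes both counts. By Spearman correlation of CPM over 32141 peaks, a description over peaks that share a library, cluster 3 was most like cluster 0 (0.931) and cluster 2 (0.919) and least like cluster 6 (0.846). Cluster 0 also held the most counts (5395924) and cluster 6 the fewest of the 6 (756708), and the correlations were not taken at matched depth. Against cluster 0 alone, 163 of 20484 measured peaks (0.796%) passed 2-fold as more open in cluster 3 and 46 (0.225%) as less open. Against cluster 2, 90 of 14492 (0.621%) were more open and 14 (0.0966%) less. Of the 445 more open peaks, 309 were at least 2-fold higher than in cluster 0 and 296 than in cluster 2, counts that the choice of the peaks also favours.

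The higher share of counts in the more open peaks was spread over most cells of cluster 3. The peaks were chosen on the summed counts of these same cells, which favours a separation of cluster 3 from the others. The 445 peaks took a mean of 0.845% ± 0.236 of a cell's counts in cluster 3 and 0.344% ± 0.188 in the other alloBMT CD8 cells (SD over 297 and 1568 cells), and the 10th percentile in cluster 3 (0.561%) was close to the 90th percentile of the others (0.582%). The 237 peaks took 0.101% ± 0.0423 in cluster 3 and 0.244% ± 0.0889 in the others. The PT-Cy cell of cluster 3 had 0.809% of its counts in the 445 peaks, close to the alloBMT cluster 3 mean. Its share in the 237 peaks was 0.173%, above the 90th percentile of alloBMT cluster 3 (0.155%). For the other alloBMT CD8 cells, that share lay between the 10th percentile (0.143%) and the lower quartile (0.187%). Within cluster 3, the share in the 445 peaks went with Tex1 weakly (Spearman 0.234 over 297 cells) and with Tex_Acc1 less (0.083). The value was 0.156 with the mitochondrial share and -0.142 with ATAC depth. These cells share a library and the relations are descriptions.

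Other sets of cells held the 445 peaks at lower levels, and alloBMT CD4 cluster 1 came nearest. Summed over the peaks, the level was 8207 CPM in cluster 3, against 2622 to 4191 CPM in the other alloBMT CD8 clusters. The choice of the peaks against those same cells largely fixes this gap. In PT-Cy it was 3325 CPM in CD8 cluster 2, 3577 CPM in cluster 5 and 1992 CPM in cluster 6. In the 2 clusters with over 50 cells in both libraries the PT-Cy level was lower than the alloBMT level, by a log2 ratio of -0.15 (-0.20 to -0.10) in cluster 2 and -0.46 (-0.56 to -0.37) in cluster 6. Cluster 5, with 189 PT-Cy and 30 alloBMT cells, went the other way, at 3577 CPM (3449 to 3709) in PT-Cy and 2622 CPM (2431 to 2824) in alloBMT. The library and the treatment cannot be told apart.

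The CD4 cells were not used to define CD8 cluster 3. In alloBMT CD4 cluster 1 the 445 peaks summed to 4596 CPM, against 2129 CPM in CD4 cluster 0, the largest CD4 cluster. Of the 408 of them with at least 20 counts in that pair, 236 (57.8%) were at least 2-fold higher in CD4 cluster 1, against 5.67% of all 31872 peaks measured there. The 237 less open peaks summed to 1971 CPM in CD4 cluster 1 and 2723 CPM in CD4 cluster 0, and 41 of 234 (17.5%) were at least 2-fold lower, against 2.07% of all. The other 37 of the 445 had too few counts there to be measured, CD4 clusters too were made from these data, and the comparison was chosen after the values were seen, so it carries no test. A peak could reach 20 counts through either cluster of the pair alone, which favours a 2-fold difference towards that cluster. The shares over all peaks were not matched for counts. Both limits hold for the CD4 pairs below as well. Over CD4 cluster 0, CD4 clusters 2, 3 and 4 had 128, 121 and 126 of the 445 peaks measured. At least 2-fold higher were 18.0%, 20.7% and 31.0% of these, against 3.25%, 3.89% and 5.62% of all peaks. At least 2-fold lower were 14.8%, 11.6% and 11.9%, against 8.78%, 9.85% and 12.5% of all. CD4 cluster 1 also had the higher deposited Tex1, with a median of 0.0378 against -0.00513 in CD4 cluster 0, the higher mitochondrial share (4.17% against 3.24%) and the lower share of fragments at start sites (38.7% against 40.2%). The Cd8a locus stood at 11.2 CPM in CD4 cluster 1 and 2.94 CPM in CD4 cluster 0, and the Cd8b1 locus at 11.8 and 11.4 CPM. The part of CD8 cells and of these quality values in the result was not tested.

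**Figure D4:**
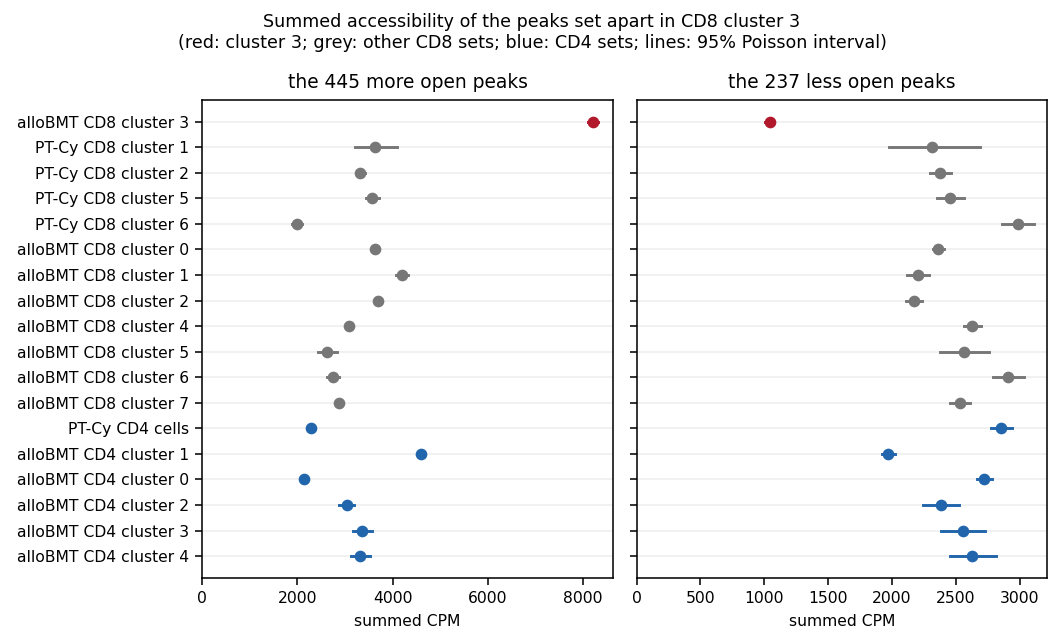
Summed CPM (horizontal axis) of the 445 more open and the 237 less open peaks in each set of cells, with 95% Poisson intervals, for alloBMT CD8 cluster 3 (red), other CD8 sets (grey) and CD4 sets (blue). Cluster 3 is at 8207 and 1042 CPM, and of the other sets alloBMT CD4 cluster 1 lies nearest on both sides, at 4596 and 1971 CPM.

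Whole gene loci were read at a lower threshold than peaks. At the same minimum of counts, 14297 loci could be measured, and a 1.5-fold threshold left 487 (3.41%) as more open in cluster 3 and 70 (0.49%) as less open. With edgeR TMM factors these were 281 and 206, with DESeq2 size factors 276 and 213, and after scaling to start-site peaks 671 and 43. Thinning the cells to a common depth turned the balance, with 251 more open and 369 less open of 11395 loci. The more open loci were mostly thinly covered ones: 336 of the 487 had 100 to 300 counts, a class in which the median log2 ratio of 2030 loci was 0.21, whereas the median was -0.01 at 300 to 1000 counts, -0.07 at 1000 to 2000 and -0.06 above that. Peaks of a locus share their library and depth, and genes that overlap share peaks, since ATAC has no strand.

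Among the more open loci were several of genes with known parts outside T cells. Mrc2 held 253 counts in cluster 3 (84.2 CPM) and 469 in the others (34.5 CPM), a log2 ratio of 1.29 (1.06 to 1.51), with the next cluster at 44.9 CPM. Glis1, a zinc finger factor, held 639 and 1404 counts (1.04, 0.91 to 1.18) over 30 peaks. Kif26b held 365 and 779 counts (1.08, 0.90 to 1.27) over 20 peaks. Of these 20 peaks, 4 had enough counts to be called and 3 were called. Against its nearest neighbour, cluster 0, Glis1 was still 0.86 higher on the log2 scale (0.70 to 1.02) and Kif26b 0.89 (0.67 to 1.103). Csf2rb, the shared beta chain of receptors for GM-CSF, IL-3 and IL-5, held 75 and 126 counts (1.43, 0.997 to 1.85). Lrrc9 (1.59), Cc2d2a (1.30), Tm4sf19 (1.41), Tmod1 (1.26), Gjb2 (1.29), Ush1c (1.31) and Adgb (1.40) were also among the 12 with the highest lower bound. Dgkg and Btbd9 held the most called peaks of single genes, 5 of 38 and 5 of 53. These totals include peaks with too few counts to be called. Of all measured peaks 1.38% were called more open, a share taken only over peaks with enough counts. A ranking by the number of called peaks also favours genes with many peaks.

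Among the members of the gene lists, Klf3 had the lowest upper bound of its interval. The locus held 154 counts in cluster 3 (51.2 CPM) and 1195 in the other CD8 cells (87.9 CPM), a log2 ratio of -0.78 (-1.03 to -0.53). The other alloBMT CD8 clusters ran from 68.0 CPM (cluster 0) to 160 CPM (cluster 6), and cluster 3 was the lowest of the 8. Each of its 4 peaks with at least 100 counts was lower in cluster 3, from the promoter (-0.79) to a called peak 10.2 kb from the start site (-1.03). Ctla2b, a protease inhibitor-like gene of activated T cells, had a log2 ratio of -0.80 (-1.26 to -0.36), Gngt2 -1.08, Fbp1 -1.03, Ptger1 -1.12 and Adcy6, an adenylate cyclase, -0.86. Vmn2r1 (-1.74, from 7 and 106 counts), Spink13 (-0.97), Tmprss13 (-1.36), Galnt9 (-0.73), Crybb1 (-0.63) and Cacnb3 (-0.61) completed the 12 with the lowest upper bound.

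The list for the stem-like, memory and naive states had 8 of 24 members with an interval below 0. Of 24, 2 were at least 1.5-fold less open (Klf3 and Id3), against 1.78% of all 16258 loci with at least 20 counts, and 0 were more open, against 6.6%. The interval lay below 0 for 8 (Klf3, Id3, Il6ra, Satb1, Lef1, Tcf7, Cd28 and Bcl2) and above 0 for 1 (Actn1), against 9.16% below and 10% above among the 16258 loci, and 16% below and 6% above among the 6431 loci with at least 1000 counts. Its median log2 ratio was -0.13, against -0.02 over all loci and -0.07 over loci with 1000 to 2000 counts. Id3, an inhibitor of E proteins kept in memory precursors, held 39 counts in cluster 3 and 277 in the others (-0.65, -1.17 to -0.16). Lef1 was -0.32 (-0.45 to -0.19) and Satb1, a chromatin organiser, -0.35 (-0.56 to -0.15). Ccr7 (0.07), Il7r (0.16) and Slamf6 (-0.02) had intervals that included 0. Cells with a count at Id3 after thinning made up 1.68% of cluster 3 and 5.35% of the others.

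Tcf7, which encodes TCF-1, was mixed within its own locus. Over the locus it stood at 111 CPM in cluster 3 and 133 CPM in the other cells (-0.27, -0.44 to -0.10), and clusters 1 and 2 were as low, at 112 and 114 CPM. The peak at chr11:52268141-52268818 held 20 counts in cluster 3 and 219 in the others (-1.27, -2.01 to -0.61), with 33.9 CPM in cluster 7 at the other end and 6.65 CPM in cluster 3. The peak at chr11:52260728-52261290 went the other way, with 72 and 193 counts (0.76, 0.34 to 1.15). The start-site peak had 28 and 177 counts (-0.48, -1.11 to 0.10), within counting error.

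Loci of exhaustion genes lay on both sides of 0. None of the 24 loci in that list was at least 1.5-fold more or less open, against 6.6% more and 1.78% less of all 16258 loci, and the median log2 ratio was -0.06, against -0.02 over all loci and -0.06 over loci with at least 2000 counts; it lay above 0 after scaling to start-site peaks. Havcr2 was the highest at 0.28 (0.11 to 0.45), with 118 CPM in cluster 3 and 96.9 CPM in the others, but clusters 4 and 5 stood at 118 and 128 CPM. Cd200r1, an inhibitory receptor, was 0.25, Tigit, another, 0.17 and Ikzf2, which encodes Helios, 0.14, all with intervals above 0. Within the Tigit locus 2 peaks were called more open (1.19 and 1.06) and 1 less open (-1.39), which the sum over the locus does not show. Ptger4 (-0.25), Nr4a3 (-0.24), Ctla4 (-0.21) and Entpd1 (-0.13) had intervals below 0. Pdcd1 (0.03, -0.09 to 0.16) and Tox (0.03, -0.05 to 0.11) had narrow intervals around 0, with Tox at 482 CPM in cluster 3 and 472 CPM in the others. After thinning, a count at Tox was found in 66.3% of cluster 3 cells and 66.4% of the others.

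Effector genes were mixed. Cx3cr1, the receptor for fractalkine and a mark of cytotoxic effector cells, was the highest of its list of 24 at 0.42 (0.22 to 0.61), with 95.2 CPM in cluster 3 and 71.2 CPM in the others. Of its 5 peaks with at least 100 counts, 2 were called: chr9:120056323-120056729 held 52 and 115 counts (1.03, 0.53 to 1.52) and chr9:120057066-120057538 held 48 and 101 counts (1.105, 0.58 to 1.61). The start-site peak had 49 and 159 counts (0.48, -0.01 to 0.95). Tbx21, which encodes T-bet, was lower (-0.25, -0.41 to -0.09), as were Tnf (-0.28), Il2ra (-0.22) and Ccl4 (-0.19). Prf1 (-0.07), Gzmb (-0.02), Gzma (-0.07), Ifng (0.08), Klrg1 (0.06), Zeb2 (-0.01) and Eomes (0.10) had intervals that included 0.

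Genes of T cell receptor signalling and its downstream factors had list medians below that of all loci (-0.02) and that of loci with at least 2000 counts (-0.06). In the list of CD8 lineage and T cell receptor genes 13 of 14 loci had a ratio at or under 0, with a median of -0.18, 5 intervals below 0 (Cd5, Cd2, Cd3d and Lck among them) and 0 members past 1.5-fold. In the list of NFAT, NF-kB and Egr factors the median was -0.14, with 7 of 14 intervals below 0 (Egr3, Relb, Nfatc2, Egr1, Rel, Nfkbia and Nfatc1), 0 above and 0 members past 1.5-fold. Over all 16258 loci 9.16% of intervals lay below 0 and 10% above, over the 6431 loci with at least 1000 counts 16% and 6%, and 6.6% of the 16258 were past 1.5-fold more open and 1.78% less. Egr3 was the lowest of them at -0.47 (-0.71 to -0.23). The AP-1 and BATF list was split, with Atf3 (0.42), Batf3 (0.42) and Batf (0.19) among those above 0 and Maf (-0.35), Junb (-0.24) and Jund (-0.24) below 0.

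Single members of other lists had intervals that excluded 0. Dnmt1, the maintenance DNA methyltransferase, was -0.45 (-0.66 to -0.25), Nr1d1, a circadian repressor, -0.51 (-0.77 to -0.25), and Ly6a, which encodes Sca-1, -0.62 (-1.25 to -0.05). Icos (-0.39) and Cd226 (-0.43), both costimulatory receptors, were lower, and Tnfsf4, the ligand OX40L, was higher (0.42, 0.10 to 0.73). On the higher side were Itgb8, an integrin chain that activates TGF-beta (0.75, 0.27 to 1.21), Ccr6 (0.62, 0.28 to 0.95), the cytokine gene Il21 (0.61, 0.29 to 0.93) and Tyms, the thymidylate synthase (0.45, 0.17 to 0.72). Itgb8 stood at 18.0 CPM in cluster 3 but at 56.6 CPM in alloBMT CD8 cluster 5, which has 30 cells. Against a median of -0.02 over all loci, with 6.6% more and 1.78% less open past 1.5-fold, cell division genes had a median of -0.09 over 22 loci with 0 past 1.5-fold, interferon response genes -0.12 over 16 with 1 less open (Ly6a), tissue-resident genes -0.09 over 17 with 0, cytokine receptors -0.10 over 16 with 0 and metabolism genes -0.06 over 16 with 0, a median that lay above 0 after scaling to start-site peaks. By coverage, the median was -0.01 over loci with 300 to 1000 counts, -0.07 over those with 1000 to 2000 and -0.06 above that, so most of these list medians lay near that of well-covered loci.

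**Figure D5:**
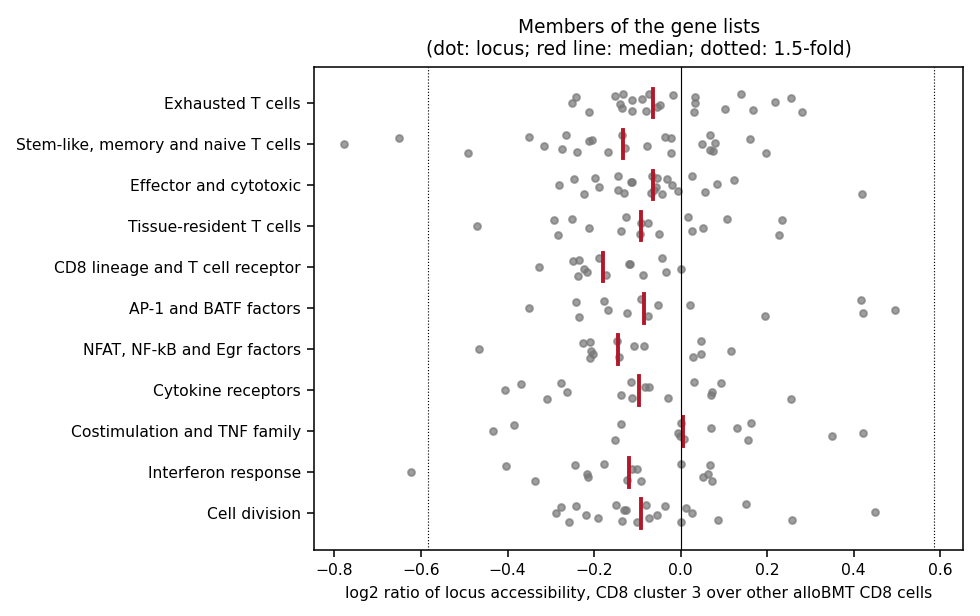
Log2 ratio of locus accessibility in CD8 cluster 3 over the other alloBMT CD8 cells (horizontal axis) for the measured members of 11 gene lists, with each list's median as a red line and dotted lines at 1.5-fold. Klf3 and Id3 in the list of stem-like, memory and naive cells and Ly6a in the interferon list are the points past the left dotted line, and 0 points pass the right one.

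Markers of other blood cells had summed levels in cluster 3 close to those in the other CD8 cells, with single members on either side. The summed level of 12 B cell loci was 368 CPM in cluster 3 and 359 CPM in the others, of 11 measured monocyte and macrophage loci 345 and 332 CPM, of 5 neutrophil loci 97.8 and 101 CPM, of 7 erythroid loci 155 and 159 CPM, and of 11 loci of dendritic cells and progenitors 569 and 534 CPM. Past 1.5-fold less open were 1 of the 12 B cell loci (Ms4a1), 2 of the 11 monocyte and macrophage loci (Csf1r and Adgre1) and 1 of the 5 neutrophil loci (Cxcr2), all with intervals that included 0. In these 5 lists 0 loci were past 1.5-fold more open. Over all 16258 loci with at least 20 counts, 1.78% were less open and 6.6% more open. Of the 11 dendritic and progenitor loci, 3 had an interval above 0 (Mecom, 0.57, Batf3, 0.42, and Tcf4, 0.32) and 0 below. Among the 16258 loci, 10% of intervals lay above 0 and 9.16% below. Counts were 0 in cluster 3 at Elane, Retnlg, Ngp, Siglech and 4 haemoglobin genes, and 2 or 3 at S100a8, S100a9, Lyz2 and Camp. Innate-like and NK genes summed to 364 CPM in cluster 3 and 362 CPM in the others. Of 11 measured loci, 1 had an interval above 0 (Zbtb16, 0.37, 0.15 to 0.59) and 1 below (Nr1d1, -0.51, -0.77 to -0.25). Past 1.5-fold, 0 were more open and 1 less open, with an interval that included 0.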

How the data were processed

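ATAC libraries of pooled T cells from 1 PT-Cy and 1 alloBMT group were used, as grouped by the labels. Cell Ranger ARC 1.0.1 and MACS2 had been run, per the submitters' processing notes, with settings that the sources used here do not state. GRCh38 is the build named there, whereas the deposited peaks fit the mouse assembly GRCm38.p6: 65.2% of 17492 genes had a start site in a peak, against 5.91% to 7.01% with start sites shifted by 2000 to 200000 bases. Positions are printed as deposited. The deposited ATAC table holds whole-number counts per peak and cell, not normalized (per the file headers), for 148283 peaks and 3587 cells. The authors' per-cell table gives clusters, module scores, counts, the TSS enrichment ratio, a mitochondrial percent and a fraction of fragments falling in peaks, per the file headers; of its 59 columns 35 were not used. How the authors treated doublets is not stated in those sources, and no doublet caller was run here.

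Counts were summed over cells, scaled to CPM and compared as log2 ratios with exact conditional binomial (Clopper-Pearson) 95% intervals. Called means 2-fold with at least 100 counts for peaks and 1.5-fold for loci; list members needed 20 counts. For ratios, 0 counts were replaced by a floor of 3. The 23 lists hold 337 genes, of which 3 were not in the gene table. Levels of single sets carry exact Poisson intervals and shares of cells exact binomial ones. Shares were taken after thinning each cell to the 10th percentile of depth without replacement.

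Named loci were the 12 with the highest lower and the 12 with the lowest upper bound (predicted genes, receptor segments and sex-linked genes left out), up to 4 members of each list with the largest absolute ratio, and a set of state genes; named peaks were 8 in each direction and the most different peak at each state gene. Further list members are named where their interval excluded 0. Some items that these rules name are not reported here. The lists, rules and the choice of cells were made with earlier results of these data known, so nothing here is independent of them. The computation was tested on simulated counts. The alternatives comprised TMM factors (edgeR 4.0.16) and size factors (DESeq2 1.42.0), 2 other count minimums, binary counts, thinning, other reference cells and other windows. Software was R 4.3.3 and Python 3.11.15 with pandas 2.3.3, scipy 1.17.1 and numpy 2.4.6.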

Additional observations from a re-analysis of the deposited data

How the results depend on the processing

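No paired analysis was possible because each group holds 1 library. Results rest on 1 library and 297 cells, peaks with 100 to 200 counts carry wide intervals, and a ratio near 2-fold can pass or miss by counting error alone.

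The 4 counts (peaks more and less open, loci more and less open) were 445, 237, 487 and 70. They were 278, 429, 281 and 206 with edgeR TMM factors and 268, 437, 276 and 213 with DESeq2 size factors, which moved every log2 ratio by -0.14. With TMM over the peaks of at least 100 counts, added after seeing the data, the shift was 0.04. A minimum of 50 counts gave 1407, 1016, 757 and 147, and of 200 counts 84, 35, 256 and 32, which follows from the peaks measured (48864 and 19964). Thinned cells gave 27, 102, 251 and 369, over 12078 peaks and 11395 loci. Counting each cell once per peak gave 264 more open peaks. Less open peaks were 120 without cluster 0 among the other cells, 147 without cluster 4, and 422 with the CD8 cells of both libraries, which also gave 118 less open loci. Peaks within 2 kb of a start site gave 250 more open loci, and scaling to start-site peaks, added after seeing the data, 43 less open loci. For these and the scaling settings the cause was not tested. The Galnt9 locus, -0.73 with all its peaks, was 0.53 with peaks within 2 kb of a start site, and the cause was not tested. With medians over cells, and with cells between the quartiles of ATAC counts, the score differences were 0.0220 and 0.0248 for Tex1, 0.0182 and 0.0211 for Tex_Acc1, -0.0245 and -0.0306 for Stem_Like1, and -0.00984 and -0.0239 for Stem_Like_Acc1. Scaling to start-site peaks moved ratios by 0.07 and turned list medians between -0.07 and 0, the exhausted, effector and metabolism lists among them, to above 0. The other list medians printed below 0 stayed there under TMM, DESeq2 and start-site scaling.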
